A study of Arabidopsis thaliana with 24 samples.

Results

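The 10 genes described here cover the making, the breakdown and the readout of abscisic acid, a plant hormone, in Arabidopsis thaliana seedlings exposed to shade. They were chosen by gene identifier from a table of 33026 genes and are NCED3 (AT3G14440), CYP707A1 (AT4G19230), CYP707A2 (AT2G29090), CYP707A3 (AT5G45340), ABI1 (AT4G26080), ABI2 (AT5G57050), HAB1 (AT1G72770), HAI1 (AT5G59220), RD29B (AT5G52300) and RAB18 (AT5G66400). The deposited table lists HAI1 under the name SAG113 and RD29B under the name LTI65. All 10 passed the filter on low values, which asked for at least 1 TPM (a level scaled for transcript length and for the library's total) in at least 2 libraries.

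Abscisic acid is cut from carotenoid precursors by 9-cis-epoxycarotenoid dioxygenases such as NCED3, and it is inactivated by the 8'-hydroxylases of the CYP707A family. The hormone binds receptors of the PYR/PYL family, which then hold back clade A protein phosphatases (ABI1, ABI2, HAB1 and HAI1 are members), so that SnRK2 kinases can activate bZIP transcription factors of the ABF and ABI5 group. These factors bind promoter elements with the core letters ACGTG and turn on genes for protective proteins, among them RD29B and the dehydrin RAB18. In vegetative tissue the pathway is best known for its part in drought responses and stomatal closure.

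RNA came from whole seedlings of 3 genotypes, the wild type Col-0 (WT) and lines labelled pif7-1 and ref6-1. PIF7 is a bHLH transcription factor that acts when plants perceive shade, and REF6 is a demethylase of histone H3 lysine 27. At 4 days of age the seedlings received 8 h of white light (naive) or 8 h of shade (primed) and then 40 h of white light. Seedlings were then collected without more shade or following 1 h of it (red over far-red near 0.5). Each of the 12 groups had 2 libraries, 24 in all, and the labels leave unsaid whether a pair came from different cultures. The p-values thus rest on a spread between libraries that may be technical.

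The libraries held 18614 to 20007 genes at 1 TPM or more. PIF7 was at 1.09 to 3.03 TPM in the pif7-1 libraries and at 19.18 to 76.60 TPM elsewhere. REF6 was at 6.16 to 10.95 TPM in the libraries labelled ref6-1 and at 6.35 to 12.87 TPM elsewhere, and these ranges overlapped. In primed white light it was 6.16 and 6.84 TPM with the ref6-1 label and 8.13 and 9.28 TPM in WT. In primed shade it was 8.2 and 7.81 TPM with the label and 11.29 and 10.67 TPM in WT. Naive libraries labelled ref6-1, at 7.61 to 10.95 TPM, overlapped naive WT, at 8.96 to 12.87 TPM. ATXR7, a histone methyltransferase gene, was at 0 to 0.02 TPM in the 4 naive libraries labelled ref6-1 and at 7.20 to 8.60 TPM in the 4 primed ones, so the naive and primed plants with this label differed beyond their history, and history and line cannot be told apart. The naive mutant libraries also carry separate, later sample records, and for both reasons naive and primed mutant levels are given side by side without a test. Transcripts of mitochondrial genes summed to 559.14 and 321.09 TPM in naive WT in shade and to 406.70 and 157.81 TPM in naive shade libraries labelled ref6-1, against 58.90 to 186.29 TPM in the other 20. The 6 root marker genes tested all fell in both of these shade groups, and results that involve them carry both facts.

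Across all libraries RAB18 was the most abundant of the 10 genes, with a median of 133.24 TPM and a range of 56.17 to 459.25 TPM. HAB1 followed at a median of 46.81 TPM, RD29B at 31.9 TPM and ABI1 at 29.2 TPM. The enzyme genes were low: CYP707A2 had a median of 6.63 TPM, CYP707A1 2.88 TPM, NCED3 2.3 TPM and CYP707A3 1.53 TPM. ABI2 lay at a median of 4.48 TPM and HAI1 at 1.01 TPM. Values were compared as log2(TPM + 1), a scale that understates the change of low genes, with limma fitted to all 21473 genes that passed the filter and p-values adjusted over all of them. In whole seedlings a lower level can mean fewer cells of a type or less RNA per cell, and these cannot be told apart.

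**Figure D1:**
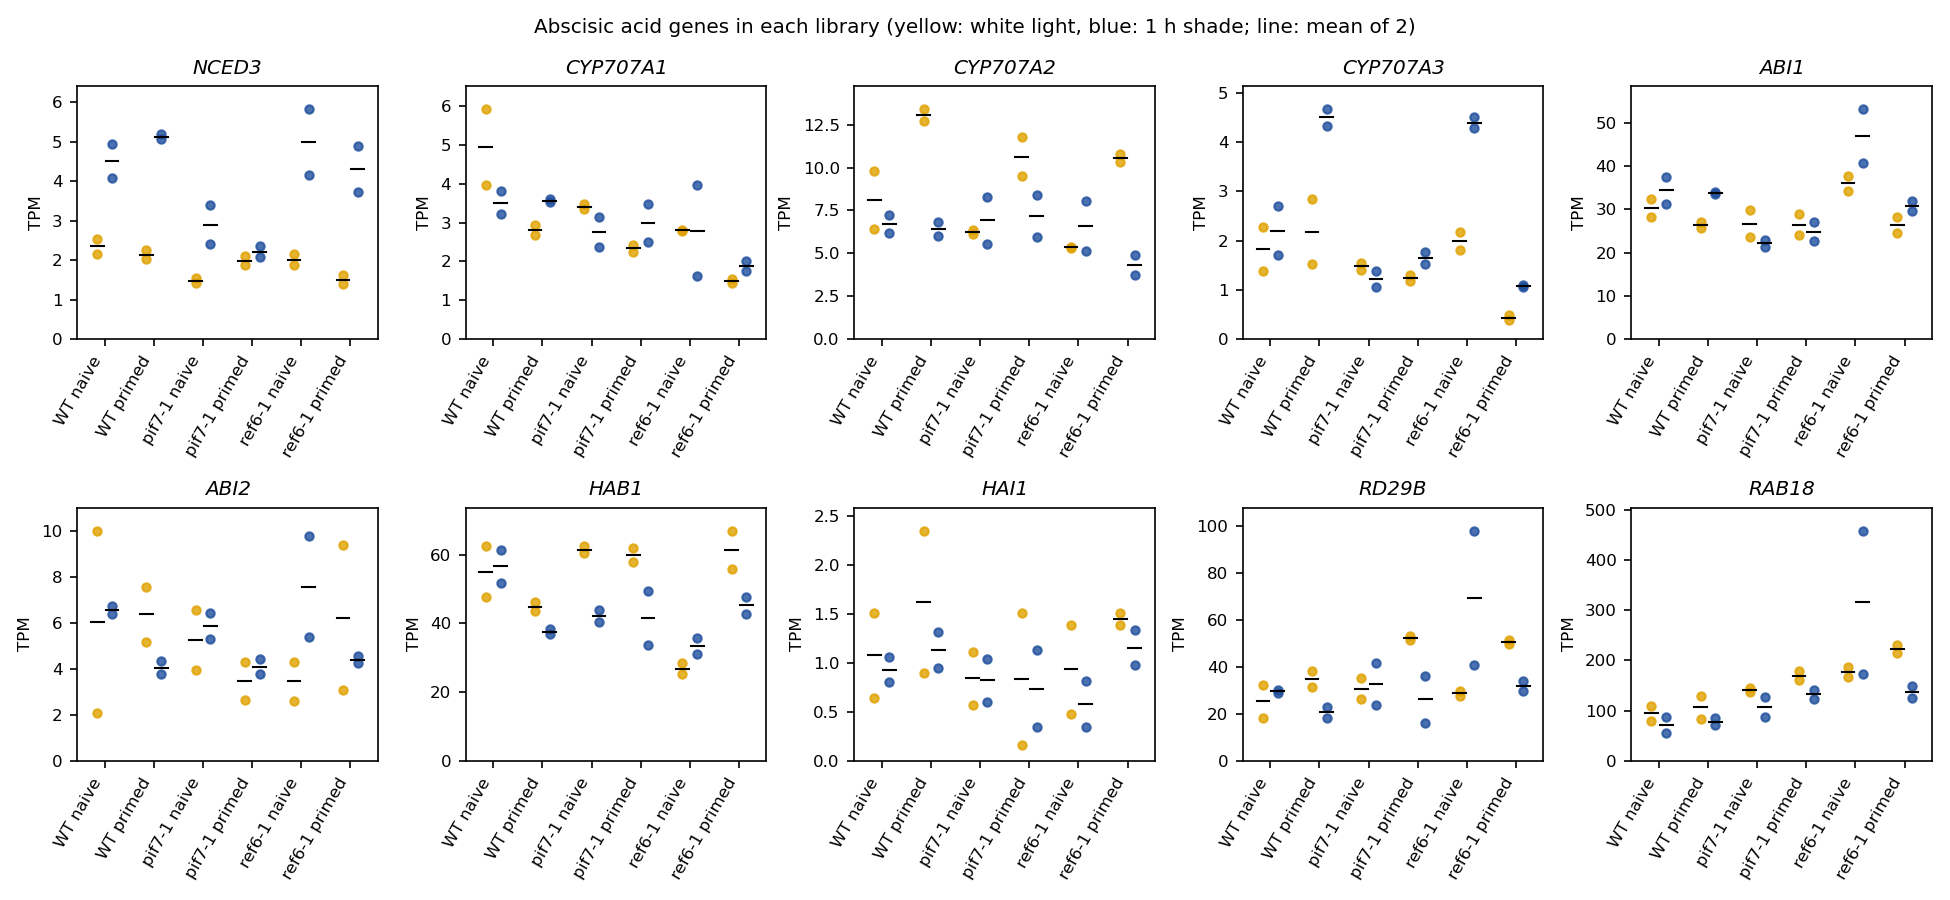
TPM of each of the 10 genes in each library, on linear axes, with genotype and history along the x axis. Points are single libraries, coloured by light. NCED3 lay higher in shade in WT and in libraries labelled ref6-1, and the first naive shade library labelled ref6-1 held the highest RD29B (98.02 TPM) and RAB18 (459.25 TPM).

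Of the 10 genes, NCED3 was the one whose RNA rose in most of the shade comparisons. Its level rose after 1 h of shade in WT of both histories, in naive pif7-1 and in both sets of libraries labelled ref6-1, and in primed pif7-1 it did not pass the test. In naive WT it was 2.16 and 2.55 TPM in white light and 4.09 and 4.94 TPM in shade. In primed WT it was 2.04 and 2.25 TPM in white light and 5.19 and 5.06 TPM in shade. Shade and white light libraries of WT did not overlap in either history. The log2 difference was 0.72 in naive WT (95% confidence interval 0.35 to 1.08, limma adjusted p = 0.00445) and 0.96 in primed WT (0.60 to 1.32, limma adjusted p = 0.00102). With the mitochondrial level as a covariate the naive WT value was 0.57 with an adjusted p of 0.221 by limma, and with only the 4 libraries compared it was 0.72 with an adjusted p of 0.0526 by limma.

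In pif7-1 NCED3 passed the shade comparison in naive but not in primed seedlings. Naive pif7-1 held 1.54 and 1.42 TPM in white light and 2.40 and 3.40 TPM in shade, a log2 difference of 0.64 (limma adjusted p = 0.0324). That call was lost without the second naive pif7-1 shade library (0.46, limma adjusted p = 0.299) or without either white light library (0.68 with an adjusted p of 0.14, and 0.61 with an adjusted p of 0.136). Primed pif7-1 held 1.88 and 2.10 TPM in white light and 2.08 and 2.35 TPM in shade, and these libraries overlapped. In primed shade NCED3 was lower in pif7-1 than in WT, by a log2 difference of -0.93 (SE 0.17, limma adjusted p = 0.00192), and it stayed called when any 1 of the 4 libraries was left out, with an adjusted p of 0.0658 by limma when only these 4 were fitted. In primed white light the levels of pif7-1 and WT overlapped. The shade response itself, taken as the shade minus white light difference, was smaller in primed pif7-1 than in primed WT by 0.86 on the log2 scale (interval of the difference -1.37 to -0.35, limma adjusted p = 0.0255). Leaving out 1 library ended that call in 6 of 8 cases, with adjusted p-values from 0.0538 to 0.0854 by limma, at differences between -0.91 and -0.80. The difference between the primed and naive pif7-1 responses, -0.54, did not pass (limma adjusted p = 0.272).

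In libraries labelled ref6-1 NCED3 rose in shade in both histories. Naive libraries held 2.15 and 1.87 TPM in white light and 5.83 and 4.16 TPM in shade, a log2 difference of 0.98 (limma adjusted p = 0.00162). This was 0.85 with an adjusted p of 0.103 by limma once the mitochondrial level was a covariate, and 0.98 with an adjusted p of 0.0596 by limma with only the 4 compared libraries. Primed libraries held 1.40 and 1.62 TPM in white light and 4.90 and 3.74 TPM in shade, a difference of 1.08 (limma adjusted p = 0.000877). The groups did not overlap in either history. The response in primed libraries labelled ref6-1 differed from that in primed WT by 0.11, with an interval of -0.40 to 0.63, which spans 0.

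The NCED3 promoter is printed because this gene carries the shade response described above. It is the window of 250 bases before the annotated gene start, chr3:4834016-4834265 on the minus strand of RefSeq build TAIR10.1, 5′ to 3′, and it holds no match to the 4 motifs searched, so no letters are in capitals:
NCED3: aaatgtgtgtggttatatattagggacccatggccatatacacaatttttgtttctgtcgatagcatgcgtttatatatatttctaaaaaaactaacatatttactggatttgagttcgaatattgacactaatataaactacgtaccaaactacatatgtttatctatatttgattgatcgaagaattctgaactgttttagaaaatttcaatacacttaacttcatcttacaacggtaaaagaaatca

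The motifs searched on both strands, in windows from 250 bases before to 50 bases after the gene start, were the abscisic acid response element core (ACGTG), the G-box (CACGTG), the PBE-box (CACATG) and the drought response element core (CCGAC). Each G-box also counts as 2 response element cores, 1 on each strand. Among 27443 promoters of protein-coding genes, 26.7% held a response element core and 10.7% held 2 or more, 7.68% held a G-box, 12.9% a PBE-box and 15% a drought element core. NCED3, CYP707A2, ABI1, ABI2 and HAI1 held none of the 4. A match describes letters only and does not show that a factor binds there.

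**Figure D2:**
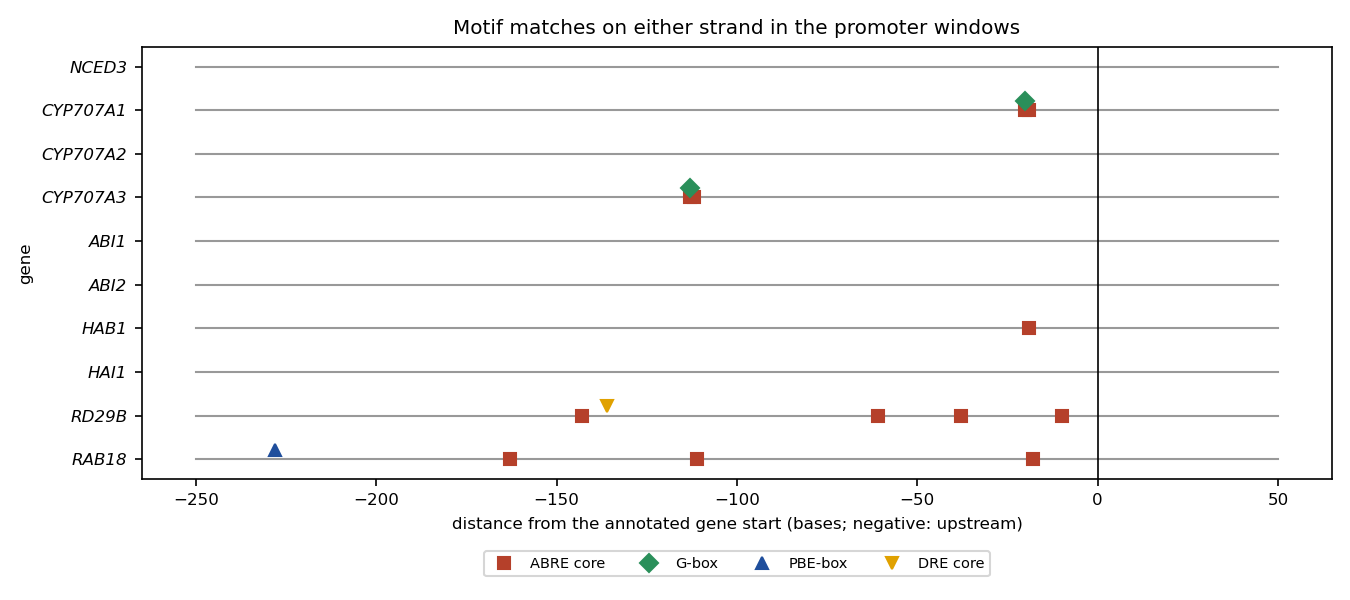
Positions of the 4 motifs in the 10 promoter windows, in bases from the annotated gene start. RD29B holds 4 response element cores, RAB18 holds 3, CYP707A1 and CYP707A3 hold a G-box each, HAB1 holds 1 core and the other 5 genes hold no match.

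The 3 hydroxylase genes of the inactivation step did not move together. CYP707A3 rose in shade in primed WT and in naive libraries labelled ref6-1, and its rise in primed libraries of that label did not pass. CYP707A2 fell in shade in primed WT and primed libraries labelled ref6-1, and CYP707A1 passed in none of the 19 comparisons. CYP707A2 encodes the enzyme known for lowering abscisic acid in imbibed seeds, and CYP707A1 and CYP707A3 are known from seeds and from leaves, where CYP707A3 acts when humidity rises or water returns.

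CYP707A3 and CYP707A1 share a stretch of promoter, printed here because the pair shares a G-box and differs in its values. The letters are RefSeq build TAIR10.1, 5′ to 3′, with the G-box in capitals. The CYP707A1 window is chr4:10521219-10521264 on the plus strand, with the G-box starting at -20 from the gene start, and the CYP707A3 window is chr5:18371109-18371154 on the minus strand, with the G-box starting at -113:
CYP707A1: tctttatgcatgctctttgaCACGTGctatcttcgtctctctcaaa
CYP707A3: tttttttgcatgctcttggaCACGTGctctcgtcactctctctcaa
Of the 46 letters 31 are identical at the same place, and the longest run shared by both 300-base windows, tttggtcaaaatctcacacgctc, is 23 bases long.

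CYP707A3 was 1.52 and 2.84 TPM in primed WT in white light and 4.67 and 4.33 TPM in shade, a log2 difference of 0.82 (SE 0.21, limma adjusted p = 0.0101). The groups did not overlap, but the call was lost without the first white light library (0.52, limma adjusted p = 0.152) or without either shade library (0.78 with an adjusted p of 0.0682, and 0.87 with an adjusted p of 0.051). In primed WT 3 of 5 guard cell markers (FAMA, KAT1 and HT1) and 1 of 6 root markers also rose in shade. In naive WT the guard cell markers did not move together in shade: KAT1 rose by 1.92, HT1 changed by -0.78 and AT1G22690 by -1.40. The part of these markers was not tested. In naive WT CYP707A3 was 1.39 and 2.27 TPM in white light and 1.70 and 2.71 TPM in shade, and these libraries overlapped. In shade its level was higher in primed than in naive WT by 0.80 (limma adjusted p = 0.006). The CYP707A3 value was 0.57 with an adjusted p of 0.0887 by limma without the first naive shade library, and 0.26 with an adjusted p of 0.687 by limma with the mitochondrial level as a covariate. In the same comparison 6 of 6 root markers and 3 of 5 guard cell markers were higher (FAMA by 1.12, HT1 by 1.1 and AT1G22690 by 1.23). The summed guard cell markers were 393.38 and 476.01 TPM in naive and 923.77 and 916.26 TPM in primed shade, and their part in the CYP707A3 difference was not tested. The difference between the primed and naive WT responses of CYP707A3, 0.64, did not pass (limma adjusted p = 0.102).

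Both mutants held less CYP707A3 than WT in primed shade. Primed pif7-1 was at 1.18 and 1.3 TPM in white light and 1.77 and 1.52 TPM in shade, and in shade it lay below WT by a log2 difference of -1.06 (SE 0.21, limma adjusted p = 0.00301). Primed libraries labelled ref6-1 were at 0.39 and 0.49 TPM in white light, the lowest of all 24, and at 1.1 and 1.06 TPM in shade. This rise in shade, 0.53, did not pass (limma adjusted p = 0.109). With a pseudocount of 0.1 it was 1.13 and passed (limma adjusted p = 0.0242). These primed libraries lay below WT by -1.11 in white light (limma adjusted p = 0.00219) and by -1.40 in shade (SE 0.21, limma adjusted p = 0.000579), with no overlap in either light. In primed shade 4 of 6 root markers were lower than WT in pif7-1 and 0 of 6 were called with the ref6-1 label. Of the 5 guard cell markers 1, the channel gene KAT1, was lower than WT, by -2.33 in pif7-1 and -2.22 with the ref6-1 label. KAT1 itself rose in shade in WT and in libraries labelled ref6-1, in both histories. In primed white light with the ref6-1 label KAT1 was lower than WT (-1.15) and AT1G22690 was higher (0.88). The part of root and guard cell markers in the CYP707A3 values was not tested. The 3 CYP707A3 calls held when any 1 of the compared libraries was left out. The pif7-1 value had an adjusted p of 0.058 by limma with only the 4 compared libraries. Naive pif7-1 stayed between 1.05 and 1.54 TPM in both lights. Naive libraries labelled ref6-1 rose from 2.18 and 1.80 TPM to 4.28 and 4.50 TPM in shade, by 0.85 (limma adjusted p = 0.0122). Without the second shade library that value was 0.82 with an adjusted p of 0.0677, without the second white light library 0.76 with an adjusted p of 0.0761, and with only the 4 compared libraries 0.85 with an adjusted p of 0.062, all by limma.

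CYP707A2 showed its highest levels in primed seedlings in white light. In WT it was 13.41 and 12.69 TPM in primed white light and 6.82 and 6.04 TPM in primed shade, a log2 difference of -0.92 (SE 0.22, limma adjusted p = 0.00743). Naive WT held 6.43 and 9.82 TPM in white light and 6.16 and 7.26 TPM in shade. The primed white light libraries thus stood above all other WT libraries. Primed against naive WT in white light gave 0.65 (limma adjusted p = 0.084), and the difference of the 2 WT responses gave -0.70 (limma adjusted p = 0.0938), and neither passed. The fall in primed WT was -0.84 with an adjusted p of 0.0672 by limma without the second shade library and -0.88 with an adjusted p of 0.0533 by limma without the first white light library.

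Under each mutant label the primed white light libraries also held more CYP707A2 than the other libraries of that label. With the ref6-1 label, naive and primed plants differed in ATXR7, so history and line cannot be told apart. Primed libraries labelled ref6-1 held 10.81 and 10.30 TPM in white light and 3.75 and 4.91 TPM in shade, a fall of 1.12 on the log2 scale (log2 difference -1.12, limma adjusted p = 0.00379). Without the first shade library this was -0.97 with an adjusted p of 0.0627 by limma. Naive libraries labelled ref6-1 held 5.38 and 5.32 TPM in white light and 5.13 and 8.08 TPM in shade, which overlapped. The primed response was lower than the naive one by a log2 difference of -1.36 (limma adjusted p = 0.00706), a call that held whichever of the 8 libraries was left out (highest limma adjusted p 0.0395). Primed pif7-1 held 11.76 and 9.48 TPM in white light and 5.96 and 8.41 TPM in shade, a difference of -0.51 that did not pass (limma adjusted p = 0.177). Naive pif7-1 held 6.12 and 6.39 TPM in white light and 8.31 and 5.56 TPM in shade.

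CYP707A1 ranged from 1.45 to 5.92 TPM with a median of 2.88 TPM. Its highest library was the second naive WT white light library, and its lowest were the primed white light libraries labelled ref6-1, at 1.45 and 1.55 TPM. Primed WT held 2.67 and 2.94 TPM in white light and 3.61 and 3.52 TPM in shade. Primed libraries labelled ref6-1 reached 2.01 and 1.76 TPM in shade and lay below WT by -0.61 in white light and -0.66 in shade, with adjusted p-values of 0.0941 and 0.116 by limma.

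The 4 phosphatase genes, brakes on the pathway whose RNA is itself known to rise when abscisic acid rises, passed the test in few comparisons. ABI1 lay between 21.28 and 53.19 TPM and passed in none, with its highest values, 53.19 and 40.64 TPM, in naive shade libraries labelled ref6-1. ABI1 overlaps the gene AT4G26070 on the opposite strand, and RAB18 overlaps AT5G66410 in the same way. Whether the counting used strand was not given in the sources used here, so reads of each pair cannot be told apart. The other 8 genes overlap no annotated gene. ABI2, between 2.07 and 10.02 TPM, varied widely within groups: the naive WT white light libraries were 2.07 and 10.02 TPM, and the primed white light libraries labelled ref6-1 were 9.37 and 3.08 TPM. ABI2 and HAI1 passed in no comparison, and HAI1 reached 1 TPM in 12 of 24 libraries with a highest value of 2.35 TPM.

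HAB1 was the phosphatase gene with called differences. In WT in shade it was 51.77 and 61.30 TPM in naive and 36.77 and 38.34 TPM in primed seedlings, a log2 difference of -0.57 (SE 0.16, limma adjusted p = 0.00909). The groups did not overlap, and the call was lost without the second naive shade library (-0.45, limma adjusted p = 0.0877) or the first primed one (-0.54, limma adjusted p = 0.0543). It was also lost with the mitochondrial level as a covariate, though the difference was larger (-0.85, limma adjusted p = 0.0808). In white light WT held 47.52 and 62.60 TPM naive and 43.61 and 46.10 TPM primed. In pif7-1 HAB1 was lower in shade in both histories, at 40.43 and 43.96 TPM against 62.59 and 60.34 TPM in naive seedlings and at 33.76 and 49.37 TPM against 57.96 and 61.93 TPM in primed ones. These log2 differences, -0.53 and -0.54, missed the threshold with adjusted p-values of 0.0559 and 0.0623 by limma. Without the second primed pif7-1 shade library the primed value was -0.81 and passed, with an adjusted p of 0.00428 by limma.

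HAB1 in libraries labelled ref6-1 was the lowest of all in naive white light, at 28.48 and 25.15 TPM, and 30.97 and 35.84 TPM in naive shade. In primed libraries it was 67.00 and 55.67 TPM in white light and 42.79 and 47.70 TPM in shade. The primed response was lower than the naive one by a log2 difference of -0.73 (limma adjusted p = 0.0301). Leaving out 1 library ended the call in 5 of 8 cases, with adjusted p-values from 0.0511 to 0.116 by limma, and with the mitochondrial level as a covariate the value was -0.98 with an adjusted p of 0.0775 by limma.

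RD29B and RAB18, the targets at the end of the pathway, are known as late embryogenesis abundant type proteins that accumulate in drying seeds and in leaves given abscisic acid. Their promoters are shown because both genes are known for response element cores and because their levels moved together across libraries. Both windows are the 250 bases before the gene start in RefSeq build TAIR10.1, 5′ to 3′, RD29B at chr5:21236771-21237020 on the plus strand and RAB18 at chr5:26519448-26519697 on the minus strand. Capitals mark response element cores in either orientation, the drought element core CCGAC in RD29B and the PBE-box CACATG in RAB18:
RD29B: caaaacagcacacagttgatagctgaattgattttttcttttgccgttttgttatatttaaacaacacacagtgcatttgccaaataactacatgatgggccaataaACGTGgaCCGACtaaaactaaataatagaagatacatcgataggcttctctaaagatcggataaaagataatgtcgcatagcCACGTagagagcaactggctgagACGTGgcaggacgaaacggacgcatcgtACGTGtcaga
RAB18: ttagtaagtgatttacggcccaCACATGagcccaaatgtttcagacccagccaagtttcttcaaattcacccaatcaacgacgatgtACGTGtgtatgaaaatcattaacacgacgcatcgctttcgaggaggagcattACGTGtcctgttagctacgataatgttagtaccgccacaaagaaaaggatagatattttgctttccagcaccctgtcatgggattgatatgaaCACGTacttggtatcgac

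RD29B held 4 cores, starting at -143, -61, -38 and -10, and a drought element core at -136. RAB18 held 3 cores, at -163, -111 and -18. Having 2 or more cores put each gene among the 10.7% of all promoters with that count. That class includes the 7.68% of promoters with a G-box, which alone counts as 2 cores, and neither RD29B nor RAB18 held a G-box. HAB1, the other gene with a core outside a G-box, held 1 at -19.

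In WT neither target passed in any shade comparison in the fit to all 24 libraries. RD29B was 18.14 and 32.34 TPM in naive white light and 30.23 and 28.79 TPM in naive shade, and 38.21 and 31.46 TPM in primed white light and 18.15 and 22.94 TPM in primed shade. The primed groups did not overlap, with a log2 difference of -0.74 (limma adjusted p = 0.177). RAB18 was 79.93 and 108.60 TPM in naive white light and 56.17 and 87.44 TPM in naive shade. It was 128.64 and 84.09 TPM in primed white light and 71.48 and 84.88 TPM in primed shade, and WT groups overlapped in both histories.

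Every primed mutant library held more RAB18 than the primed WT libraries of the same light, and 1 of these 4 differences passed. Primed pif7-1 held 178.79 and 160.38 TPM in white light and 124.04 and 141.89 TPM in shade, and its log2 differences from WT, 0.70 and 0.76, did not pass (adjusted p 0.241 and 0.127 by limma). Naive pif7-1 held 145.78 and 137.84 TPM in white light and 87.30 and 126.56 TPM in shade. Primed libraries labelled ref6-1 held 230.02 and 214.63 TPM in white light and 124.82 and 149.93 TPM in shade. Shade against white light gave -0.70 there (limma adjusted p = 0.197), and with only the 4 compared libraries it passed (limma adjusted p = 0.0162). The white light difference from WT was called at 1.09 (SE 0.34, interval 0.37 to 1.80, limma adjusted p = 0.0389), and the shade difference was 0.80 (limma adjusted p = 0.196). Leaving out 1 of the 4 white light libraries ended the call in 3 cases, with log2 differences between 0.78 and 1.14 and adjusted p-values from 0.133 to 0.31 by limma, and with no filter beyond a TPM above 0 the adjusted p was 0.0579 by limma. The summed level of 9 seed marker genes was 41.14 and 207.85 TPM in these 2 libraries and 21.72 and 17.77 TPM in WT, with the cruciferin gene CRU2 and the albumin genes SESA1, SESA2 and SESA3 listed at 0 in these WT libraries. The part of seed RNA in the RAB18 difference was not tested.

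RD29B in primed white light was 51.60 and 49.69 TPM in libraries labelled ref6-1 and 51.58 and 52.94 TPM in pif7-1. Both mutants lay above the WT libraries, by 0.53 and 0.58 on the log2 scale, and neither passed (adjusted p 0.394 and 0.401 by limma). In primed shade RD29B was 29.48 and 34.00 TPM in libraries labelled ref6-1 and 16.26 and 36.26 TPM in pif7-1. The pif7-1 shade difference was -1.07 with an adjusted p of 0.108 by limma, and without the second primed pif7-1 shade library it was -1.63 and passed, with an adjusted p of 0.0154 by limma. Naive pif7-1 held 35.15 and 26.16 TPM in white light and 23.88 and 41.58 TPM in shade.

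The largest values of both targets came from 1 library. In naive shade labelled ref6-1, RD29B was 98.02 and 40.93 TPM and RAB18 was 459.25 and 172.31 TPM, against 27.63 and 29.65 TPM and 166.03 and 187.56 TPM in naive white light. The first of these shade libraries stood apart from its replicate, and it also held 406.70 TPM of mitochondrial transcripts and 42.99 TPM of the seed marker sum, against 157.81 TPM and 19.75 TPM in the second. The naive shade difference was 1.12 for RD29B (limma adjusted p = 0.0531) and 0.67 for RAB18 (limma adjusted p = 0.184). Without that library the values were 0.50 (limma adjusted p = 0.411) and -0.03 (limma adjusted p = 0.961). Without the second shade library both passed, RD29B at 1.74 (limma adjusted p = 0.0155) and RAB18 at 1.37 (limma adjusted p = 0.00913). With all libraries the RD29B naive shade difference passed at a pseudocount of 5 (limma adjusted p = 0.048). It also passed with a minimum of 5 TPM (limma adjusted p = 0.0446) and with quantile normalization (limma adjusted p = 0.0382). The primed minus naive difference of responses was called for RD29B at -1.78 (SE 0.54, limma adjusted p = 0.027) and for RAB18 at -1.37 (limma adjusted p = 0.0497). Without the first naive shade library these were -1.16 and -0.66, and each call was lost in 7 of 8 omissions of 1 library. With the mitochondrial level as a covariate they were -0.75 (limma adjusted p = 0.543) and -0.15 (limma adjusted p = 0.898). Among the seed markers, the oleosin genes OLEO1 and OLEO2 were called lower in the same difference of responses, at -2.20 and -2.46. The part of seed RNA was not tested.

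**Figure D3:**
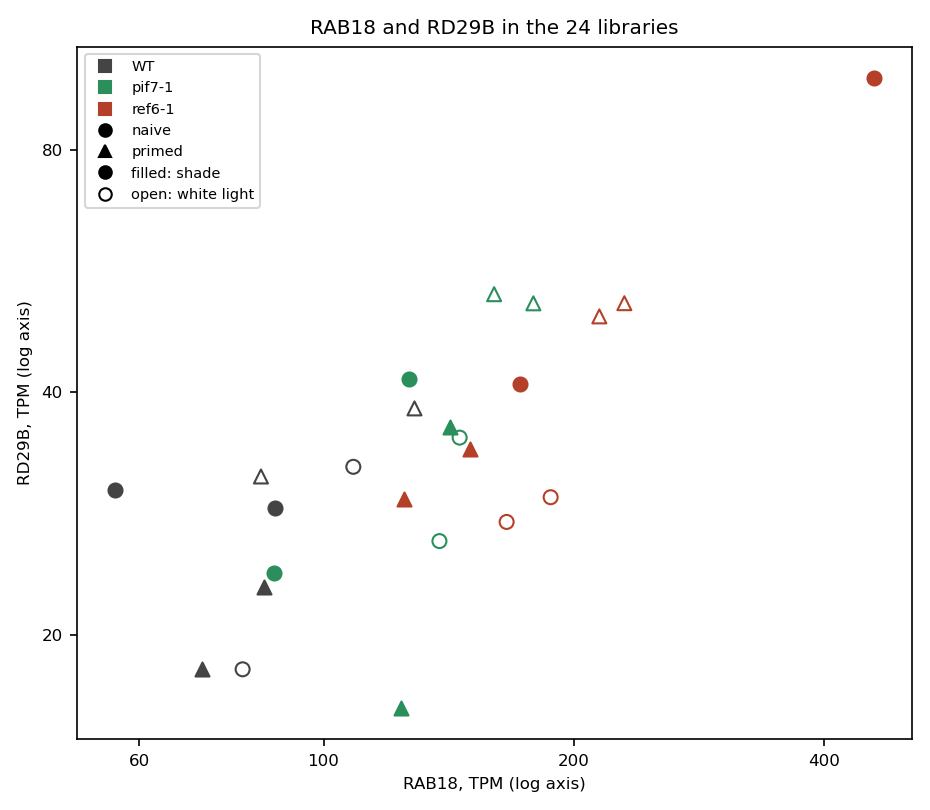
RD29B against RAB18 in TPM on log axes, with 1 point for each of the 24 libraries. The first naive shade library labelled ref6-1 lies at the upper right, at 98.02 TPM of RD29B and 459.25 TPM of RAB18.

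Over the 24 libraries RD29B and RAB18 had a Pearson r of 0.767 on log2(TPM + 1), the highest between any pair of the 10 genes, and 0.645 over the 23 libraries without the one that stood apart. CYP707A3 had an r of 0.659 with ABI1 and 0.637 with NCED3, and the lowest r, -0.486, was between CYP707A3 and HAB1. These values describe libraries that share groups, depth and tissue makeup, and carry no test.

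The genes most like each member were ranked by Pearson r of log2(TPM + 1) over the 24 libraries. They came from 14332 protein-coding genes with a mean of at least 5 TPM and differed between members, also within a role. For NCED3 they were the ethylene synthesis gene ACS6 (0.937), the HD-ZIP II gene HAT2 (0.924) and ACS8 (0.923). CYP707A3 had AT5G01790 (0.830), the guard cell potassium channel gene KAT1 (0.830) and AT3G21330 (0.826). CYP707A2 had SNZ (0.865), BBX30 (0.823) and AT1G14120 (0.807), and CYP707A1 had NRPB9B (0.835), ATOZI1 (0.818) and NAC080 (0.807).

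Among the phosphatase genes, ABI1 was most like AT1G51090 (0.884), AT2G25950 (0.879) and ECT4 (0.853). HAB1 was most like AT5G03110 (0.909), CYP71A22 (0.909) and RIBA3 (0.906), HAI1 was most like the proline synthesis gene P5CS1 (0.754), and ABI2 was most like MHK (0.767). RD29B was most like AT4G21020 (0.924), AT3G17520 (0.915) and ABI5 (0.911), the bZIP factor of the pathway. RAB18 was most like AT1G19530 (0.943), the abscisic acid target TSPO (0.938) and AT1G54870 (0.934).

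Counts of the 10 genes that passed in shade stand here beside the share of all genes tested. In naive WT 1 of 10 rose, where 12.5% of all genes rose. In primed WT 2 rose and 1 fell, where 14.5% of all genes rose and 8.94% fell. In naive libraries labelled ref6-1 2 rose, where 8.96% of all genes rose, and in primed ones 1 rose and 1 fell, where 10.2% rose and 2.58% fell. In naive pif7-1 1 rose, where 1.89% rose. In primed pif7-1 limma called 0 of 10, where 5.01% of all genes were called. At an unadjusted p under 0.05 in limma, a looser threshold than that of the shares here and below, 3 of the 10 passed. The median log2 difference of the 10 genes was 0.11 in naive WT and -0.25 in primed WT, against -0.10 and 0.02 over all genes. In naive libraries labelled ref6-1, which carry the ATXR7, mitochondrial and root marker differences given above, it was 0.52 against 0.00. Medians of the 10 genes in the other shade comparisons are not given here.

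In WT, priming left limma with 0 of 10 genes called in white light, where 7.53% of all genes were called. At an unadjusted p under 0.05 in limma, a looser threshold than that of the share, 2 of the 10 passed. In shade 1 was higher (CYP707A3) and 1 lower (HAB1) in primed WT, where 22.1% of all genes were higher and 21% lower. For pif7-1 against WT in primed white light limma called 0, beside 5.7% of all genes. There 2 of the 10 had an unadjusted p under 0.05 in limma, which is not the threshold of that share. In primed shade 2 were lower (NCED3 and CYP707A3), beside 14% lower among all genes. For libraries labelled ref6-1 against WT, 1 was higher (RAB18) and 1 lower (CYP707A3) in primed white light, beside 4.43% higher and 11.1% lower, and 1 was lower (CYP707A3) in primed shade, beside 3.45% lower.

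The primed minus naive difference of responses gave 0 of 10 by limma in WT, beside 35.4% of all genes, and 0 in pif7-1, beside 2.28%. At an unadjusted p under 0.05 in limma, which is not the threshold of these shares, 2 passed in WT and 1 in pif7-1. In libraries labelled ref6-1 the primed minus naive difference gave 4 lower (CYP707A2, HAB1, RD29B and RAB18), beside 8.43% lower among all genes. Their naive and primed libraries differ in ATXR7, so this difference is also one between the 2 sets of plants. Mutant minus WT responses gave 1 lower for primed pif7-1 (NCED3), beside 12.8% lower, and 0 for naive pif7-1, beside 12.9%. For libraries labelled ref6-1 they gave 0 in naive seedlings, beside 2.13%, and 0 in primed seedlings, beside 2.65%. At an unadjusted p under 0.05 in limma, again a looser threshold, naive pif7-1 had 1, naive ref6-1 had 2 and primed ref6-1 had 0.

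**Figure D4:**
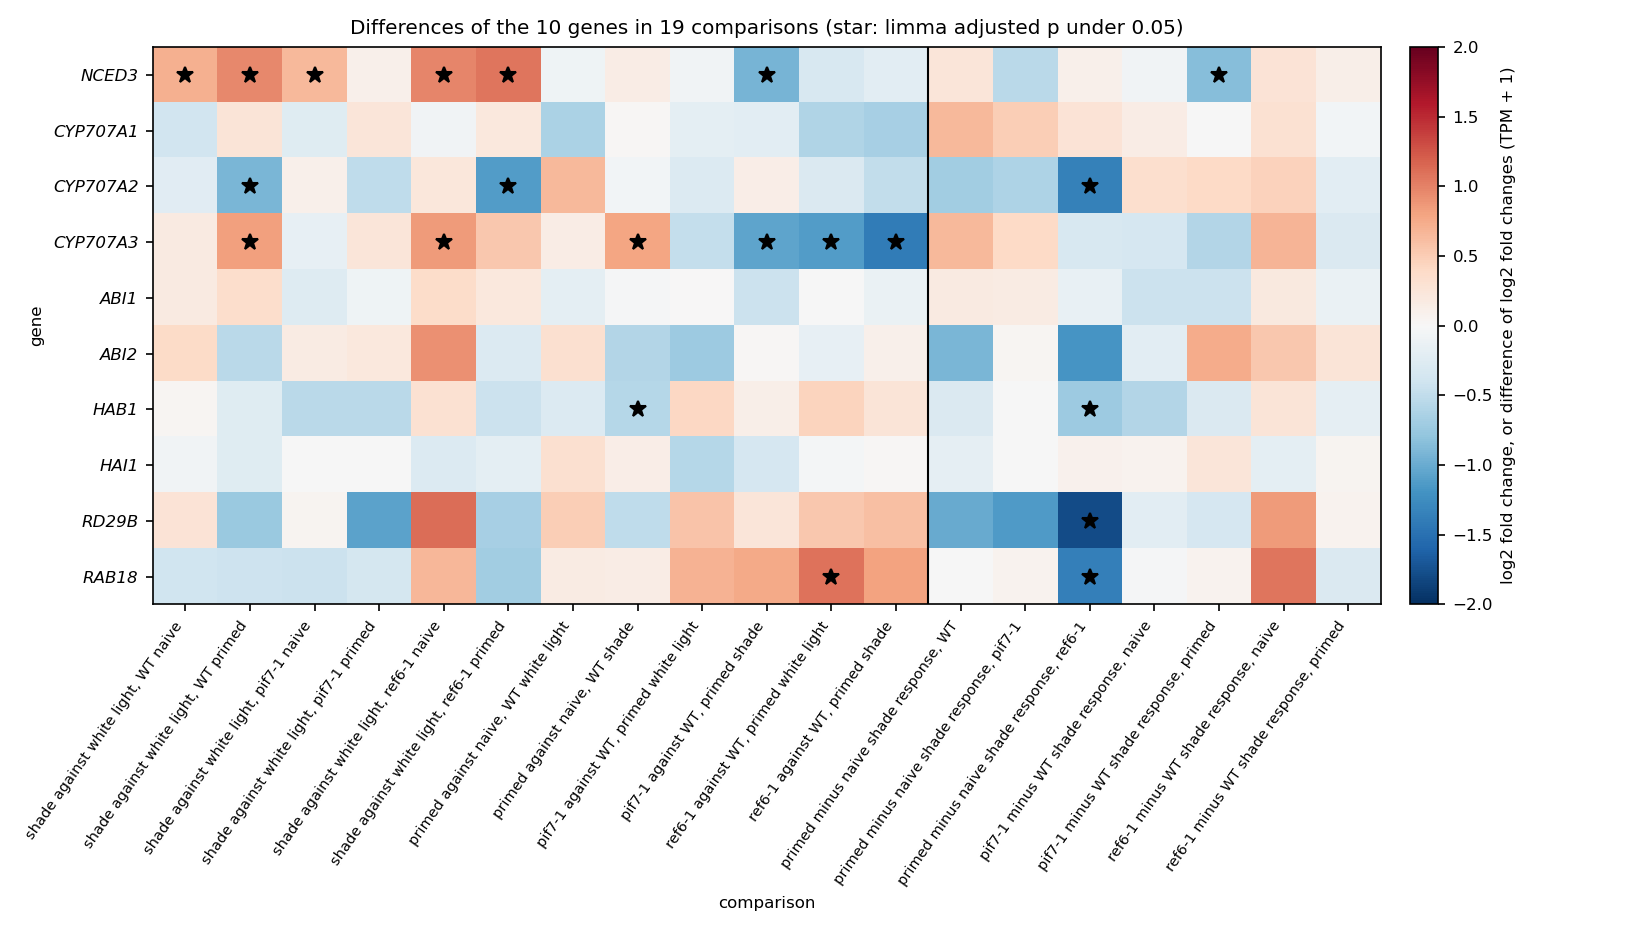
Log2 differences of the 10 genes (rows) in the 19 comparisons (columns), with a mark on those that passed at an adjusted p under 0.05 in limma. NCED3 passed in 5 of the 6 shade comparisons, and CYP707A1, ABI1, ABI2 and HAI1 passed in none of the 19.

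The rest of the pathway was followed in 74 further genes listed by role, of which 62 were tested. In naive WT 9 of them rose in shade and 13 fell, 14.5% and 21% against 12.5% and 23.1% of all genes. In primed WT 15 rose and 5 fell, 24.2% and 8.06% against 14.5% and 8.94%. In naive pif7-1 1 rose and 6 fell, 1.61% and 9.68% against 1.89% and 5.49%. In primed pif7-1 1 rose and 0 fell, beside 1.59% and 3.42% of all genes. Naive libraries labelled ref6-1 had 7 higher and 9 lower, 11.3% and 14.5% against 8.96% and 8.43%. Primed ones had 5 higher and 6 lower, 8.06% and 9.68% against 10.2% and 2.58%. The medians over the 62 genes were -0.11 in naive WT and 0.09 in primed WT, against -0.10 and 0.02 over all genes. In shade, primed against naive WT had 21 higher and 13 lower, 33.9% and 21% against 22.1% and 21% of all genes.

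**Figure D5:**
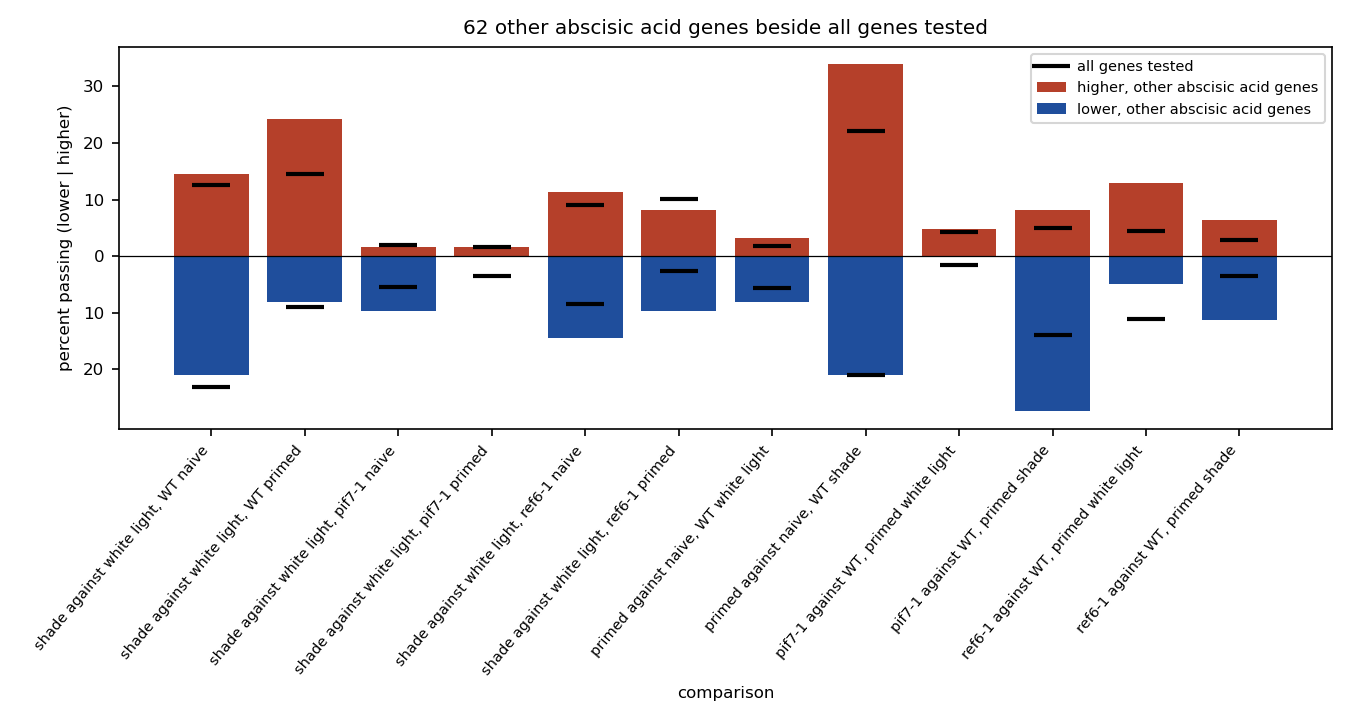
Percent of the 62 other abscisic acid genes tested and of all 21473 genes tested that passed, by direction. The shade, priming and mutant against WT comparisons are drawn, and the differences of responses are not. In primed WT 15 of the 62 rose and 5 fell in shade, where 14.5% of all genes rose and 8.94% fell.

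Of the other synthesis genes 5 of 9 were tested and NCED2, NCED5, NCED6 and NCED9 were too low, as were UGT71B6, PYL3, PYL10 to PYL13, HAI2 and ABI4 in the other lists. ABA4, of neoxanthin formation, rose in naive WT in shade by 0.61, and ABA1, the zeaxanthin epoxidase, fell by 0.54 in naive shade labelled ref6-1 (log2 difference -0.54). Of the genes that inactivate or release the hormone, BGLU18, a glucosidase that frees abscisic acid from its glucose ester, fell in shade in naive WT and rose in primed WT. In WT it was 29.17 and 31.98 TPM in naive white light and 11.89 and 15.59 TPM in naive shade, and 26.93 and 37.01 TPM in primed white light and 163.27 and 152.27 TPM in primed shade. These groups did not overlap: the log2 difference was -1.11 in naive and 2.28 in primed WT, and the difference of the responses was 3.39 (limma adjusted p = 1.6e-05). In primed shade BGLU18 was 31.54 and 14.40 TPM in pif7-1 and 62.90 and 71.74 TPM in libraries labelled ref6-1, lower than WT by log2 differences of -2.83 and -1.22. BGLU33, its relative, fell by 1.47 in naive WT (log2 difference -1.47) and rose by 1.09 in primed WT, and CYP707A4, the fourth hydroxylase gene, rose by 0.83 in primed WT.

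Receptor genes numbered 9 tested of 14 listed. PYL6 fell in shade in both WT histories (-1.05 and -0.57), in naive pif7-1 (-0.66) and in both sets of libraries labelled ref6-1 (-1.0 and -0.80). PYL6 was 7.20 and 6.69 TPM in naive WT white light and 3 and 2.7 TPM in shade, and 6.97 and 6.02 TPM in primed white light and 4.69 and 3.47 TPM in shade. PYL5 rose in naive WT by 0.59 and in primed WT by 0.32 and fell in naive pif7-1 (-0.42), and PYL4 rose in primed WT by 0.64 and fell in naive shade labelled ref6-1 (-0.59). Among the other phosphatase genes HAB2 rose in primed WT by 0.40, and AHG1 rose in naive (1.15) and fell in primed (-1.09) shade labelled ref6-1. Of the 3 kinase genes SNRK2.2 fell in naive WT (-0.35) and naive pif7-1 (-0.44) and rose in primed shade labelled ref6-1 (0.41). Of 6 transporter genes ABCG25, an exporter of the hormone, fell in naive WT (-1.08) and in naive shade labelled ref6-1 (-0.66), groups in which the root markers also fell. The part of root RNA in these was not tested.

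Transcription factor genes numbered 10 tested of 11 listed. ABF1 rose by 0.61 and NAC072, a NAC factor of drought responses, by 0.92 in naive WT in shade, and ABF1 rose by 0.50 in primed shade labelled ref6-1. ABF3 fell in primed WT (-0.57) and in primed shade labelled ref6-1 (-0.61). Of the 21 other target genes, AFP3, which encodes a protein that binds ABI5, rose in all 6 shade comparisons, by 2.13 and 1.62 in naive and primed WT, 1.15 and 1.08 in pif7-1 and 1.61 and 1.3 in libraries labelled ref6-1. It was 14.21 and 16.79 TPM in naive WT white light and 68.60 and 73.04 TPM in naive shade.

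In naive WT the drought gene RD22 and the dehydrin gene LTI30 fell (-1.88 and -1.81) and the linker histone gene HIS1-3 rose (1.59). RD22 rose in primed WT by 0.63, and its primed minus naive difference of responses was 2.51 (limma adjusted p = 7.98e-06). It fell in naive shade labelled ref6-1 (-0.85). RD29A, the neighbour of RD29B and known from drought and cold, rose in primed WT by 1.84, from 4.63 and 5.96 TPM to 19.55 and 23.44 TPM, where RD29B had a log2 difference of -0.74 that did not pass. In primed shade RD29A was 4.29 and 3.52 TPM in pif7-1 and 4.61 and 5.53 TPM in libraries labelled ref6-1, lower than WT by log2 differences of -2.20 and -1.89. COR15A, of the same cold and drought group, was lower by -2.31 and -2.17. KIN2 rose by 1.18 in naive and 1.45 in primed WT, though reads of its close copy KIN1 may be split between them.

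EM1 and EM6, genes known from embryos, were called in several comparisons. In WT EM6 rose in naive shade by 0.91 and was lower in primed than in naive shade (-1.14), and EM1 was higher in pif7-1 than in WT in primed shade by 1.28. In libraries labelled ref6-1 EM1 was higher than WT in primed white light by 2.48 and EM6 by 1.94. In shade EM1 changed by 1.26 in naive and by -1.86 in primed libraries, and EM6 by 1.42 and -1.31. In primed shade EM1 was above WT by 1.46 and EM6 by 1.39. EM6 was 77.93 and 62.88 TPM in primed white light labelled ref6-1 against 20.67 and 14.82 TPM in WT. In primed shade with this label it was 23.94 and 31.84 TPM. The seed marker sum was 41.14 and 207.85 TPM in these white light libraries and 94.85 and 10.40 TPM in the shade ones. Of the seed markers, OLEO1 was higher than WT in primed white light labelled ref6-1 by 2.13. In shade with this label OLEO1 and OLEO2 changed by -1.57 and -1.33 in primed libraries, and OLEO2 by 1.12 in naive ones. No other seed marker was called in these comparisons. The part of seed RNA in these values was not tested.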

How the data were processed

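Total RNA of whole seedlings was extracted with TRIzol and sequenced on Illumina libraries, per the labels' protocols. The table holds TPM, made by the authors and deposited for all libraries together. FastQC, cutadapt, STAR, HTSeq and DESeq2 are listed without roles, and TAIR10 as the build, per the submitters' processing notes. The sources used here do not give strandedness or the TPM calculation. Read depth, and with it the counting error of a value, cannot be had from TPM.

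A pseudocount of 1 TPM was added and log2 values were fitted with limma (version 3.58.1, R version 4.3.3). The filter of 1 TPM in any 2 libraries kept 21473 of 33026 genes. The fit had 12 group means over 24 libraries, 12 residual and 3.69 prior degrees of freedom, and a variance trend. Benjamini-Hochberg adjustment ran over all genes within each of 19 comparisons, with a threshold of 0.05. The procedure was also run on simulated data, with independent noise around a common mean for each gene and a change added to some genes. Those data held none of the line, mitochondrial or root marker differences given above.

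The 10 genes and all lists were chosen with earlier results of these data known. From each list, up to 4 passing genes with the largest change per comparison could be named, and for each of the 10 genes the 3 with the highest Pearson r. A gene so named kept its values in other comparisons, which was decided after seeing the data. Promoters and overlaps came from the RefSeq genome of build TAIR10.1. Alternatives were quantile normalization, pseudocounts of 0.1 and 5, a filter at 5 TPM or at any TPM above 0, a block for the replicate number, fits on the compared groups alone or without naive mutant libraries, and leaving out each library. A mitochondrial covariate was added after seeing the data.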

Additional observations from a re-analysis of the deposited data

Results flagged for a closer look

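The 4 results given first were singled out because the shade response differed between the primed and naive libraries labelled ref6-1 by a test of the difference itself in limma. The primed minus naive difference of responses, on the log2 scale, was -1.36 for CYP707A2, -0.73 for HAB1, -1.78 for RD29B and -1.37 for RAB18. The naive and primed plants with this label differed in ATXR7, and the values without single libraries stand beside these results in the report. NCED3 was singled out because its response in primed pif7-1 was smaller than in primed WT, by a log2 difference of -0.86.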

How the results depend on the processing

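Depth is unknown for TPM, and with 2 libraries a group the fit borrows its spread from all groups and a lone library left in a group was assumed to vary like the others. Counts of called members are given with the reported count in brackets. A minimum of 5 TPM, which leaves CYP707A1, CYP707A3 and HAI1 untested, gave 1 (2) for primed against naive WT in shade, 1 (2) and 0 (1) for ref6-1 against WT in primed white light and shade, and 0 (1) for pif7-1 minus WT responses in primed seedlings. No filter beyond a TPM above 0 gave 1 (2) for ref6-1 against WT in primed white light. A pseudocount of 5 gave 0 (1) for naive pif7-1 in shade and 1 (0) for primed minus naive responses in WT. A pseudocount of 0.1 added CYP707A3 for primed ref6-1 in shade. RD29B was added for naive ref6-1 in shade by a pseudocount of 5, a minimum of 5 TPM or quantile normalization. Quantile normalization moved the median of all genes to near 0 from -0.14 in primed against naive WT in white light, and from 0.12 in the primed minus naive WT responses, and gave 1 (0) in each. Only the compared groups gave 0 (1) for naive WT, 5 (3) for primed WT, 0 (1) for naive pif7-1, 0 (2) for naive and 4 (2) for primed ref6-1 in shade. The same setting gave 4 (2) for primed against naive WT in shade, 0 (2) for pif7-1 and 4 (1) for ref6-1 against WT in primed shade, 1 (0) for primed minus naive WT responses and 0 (1) for pif7-1 minus WT primed responses. Without the naive mutant libraries pif7-1 against WT in primed shade gave 4 (2).

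The mitochondrial covariate, chosen after seeing the data, gave 2 (1) for naive WT in shade, without NCED3, and 1 (2) for naive ref6-1 in shade. It gave 1 (0) and 0 (2) for primed against naive WT in white light and shade, and 1 (0) in WT and 1 (4) in ref6-1 for primed minus naive responses. It reversed ABI2 (0.19 from -0.58) and RD29B (0.61 from -0.51) in primed against naive WT shade, RD29B in primed minus naive WT responses (0.31 from -1.01) and RAB18 in naive ref6-1 shade (-0.36 from 0.67). None of these 4 passed in either fit. The causes were not tested.

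With the replicate number as a block, naive pif7-1 in shade had 2 (1) members called, with HAB1 added (limma adjusted p = 0.0427), and the RAB18 difference of ref6-1 responses missed the threshold (limma adjusted p = 0.0579). Deviations of same-numbered libraries correlated at -0.12 to 0.13 over 66 pairs of groups (median 0.0017), so the numbers are not shown to pair libraries.

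Leaving out each library in turn gave 1 to 2 members for naive WT, 1 to 3 for primed WT, 0 to 1 for naive and 0 to 2 for primed pif7-1, and 1 to 3 for naive and 1 to 2 for primed ref6-1 in shade. It gave 1 to 2 for primed against naive WT in shade, 1 to 2 for ref6-1 against WT in primed white light and 2 to 3 for pif7-1 against WT in primed shade. Differences of responses had 0 to 2 (primed minus naive, WT), 1 to 3 (primed minus naive, ref6-1), 0 to 1 (pif7-1 minus WT, naive and primed) and 0 to 1 (ref6-1 minus WT, naive). ABI2 ranged from -1.83 to 0.013 in primed minus naive WT responses (reversed without the first naive WT white light library) and from -0.38 to 1.47 in ref6-1 minus WT naive responses (reversed without the second), around reported values of -0.91 and 0.54. RAB18 in naive ref6-1 shade ranged from -0.034 (without its first shade library) to 1.37, around 0.67. None of the 3 reversed values was called.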
